A study of Mus musculus with 2 samples.

Results

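Genes of the splicing machinery were compared between 1 library of *Kat8* conditional knockout oocytes (cKO) and 1 library of wild type oocytes (WT), both from C57BL/6 mice aged 2 weeks. The 4 families described are the SR protein genes (*Srsf*), the hnRNP protein genes (*Hnrnp*), the subunit genes of the SF3A and SF3B complexes (*Sf3a*, *Sf3b*), and the snRNP protein genes whose symbols start with *Snrp*. Members were taken by the start of the gene symbol, leaving out the imprinted gene *Snrpn*, which gave 50 genes of the 18467 in the table of all genes. There were 11 SR, 20 hnRNP, 8 SF3A or SF3B and 11 snRNP protein genes. In the cKO, loxP-flanked *Kat8* alleles (fl/fl) were recombined by Cre driven by the promoter of the oocyte growth factor gene *Gdf9*, so other ovarian cells keep the gene. *Kat8* encodes the acetyltransferase of lysine 16 of histone H4. It stood at 0.985 FPKM in the cKO and 166 FPKM in the WT library (FPKM, the fragments of a gene corrected for transcript length and sequencing depth). The sources used here do not give how many animals or oocytes went into a library.

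Splicing removes introns from pre-mRNA in the nucleus. It is carried out by the spliceosome, which is built from small nuclear ribonucleoprotein particles (snRNPs), each a small nuclear RNA carrying a ring of Sm proteins and some proteins of its own. The U1 snRNP binds the 5′ splice site, and the U2 snRNP, held by SF3A and SF3B, binds the branch point. SR proteins bind exon sequences and help to recruit these particles, whereas many hnRNP proteins bind intron or exon sequences and oppose or redirect that choice. Growing oocytes transcribe and splice the mRNAs that they store for maturation and early development.

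With 1 library per group no difference described here has a replicate check, and genotype and individual library cannot be told apart. Calls followed a rule of size: a gene counted as higher or lower if it reached 1 FPKM in either library and its log2 ratio of cKO over WT, on the log2(FPKM + 0.1) scale, was at least 1 or at most -1. Of the 50 members 48 reached 1 FPKM. Of these, 3 were called higher and 3 lower in the cKO, and 42 were neither. Over all 11816 genes at that level the rule called 18.2% higher and 12.2% lower, against 6.25% of the members in each direction. By the false discovery rate in the authors' deposited table, the members' shares were instead above those of all genes. Neither comparison was matched for level. The members' median level was 39.7 FPKM in the cKO and 32.8 FPKM in the WT library. That of all genes was 9.05 FPKM in the cKO and 8.27 FPKM in the WT library. The median log2 ratio of the members was 0.17 and that of all genes 0.06. Scaling moved the split of the calls: with FPKM rescaled to the same total in both libraries (TPM), 8 members were higher and 2 lower, or 16.7% and 4.17%, against 24.0% and 8.14% of all genes, and the median over all genes became 0.30.

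Transcripts of oocyte genes were present in both libraries, as were, at far lower sums, those of marker genes of other cells. The 10 oocyte genes examined (among them *Gdf9*, *Bmp15* and the zona pellucida genes) lay between 57.7 and 7658 FPKM in the cKO and between 19.4 and 5201 FPKM in the WT library. The lowest of them in both, *Ddx4*, was called higher in the cKO (log2 ratio 1.57). The 8 granulosa cell genes summed to 116 FPKM in the cKO and 89.98 FPKM in the WT library, with 4 called higher and 0 lower. Of these *Inha*, at 62.7 FPKM in the cKO and 67.3 FPKM in the WT library, lay above *Ddx4* in both. The other granulosa cell genes reached at most 17.2 FPKM in the cKO (*Inhba*) and 6.70 FPKM in the WT library (*Cyp19a1*). *Amh* stood at 0.121 FPKM in the cKO and 0.288 FPKM in the WT library. The 7 theca and stroma genes summed to 6.94 FPKM in the cKO and 1.52 FPKM in the WT library, with 2 called higher. The 4 endothelial genes summed to 11.1 FPKM in the cKO and 12.3 FPKM in the WT library. Most of that was *Pecam1*, at 8.14 FPKM in the cKO and 9.78 FPKM in the WT library. The 3 measured erythroid genes summed to 15.5 FPKM in the cKO and 51.7 FPKM in the WT library. Nearly all of that was *Hba-a1*, which was called lower (log2 ratio -1.77). *Alas2* stood at 0.476 FPKM in the cKO and 0.232 FPKM in the WT library. *Hbb-bs* stood at 0.000488 FPKM in the cKO and 0.00184 FPKM in the WT library. The 3 measured immune genes summed to 0.642 FPKM in the cKO and 0.614 FPKM in the WT library. Of these marker genes 0 were listed at 0 in the cKO library. In the WT library *Lum* of the stroma list and *Ptprc*, which marks leukocytes, were listed at 0. Splicing factor genes are expressed in all of these cell types, and in whole libraries fewer cells of a type and less RNA per cell cannot be told apart. The part of other cells in the differences below was not tested.

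**Figure D1:**
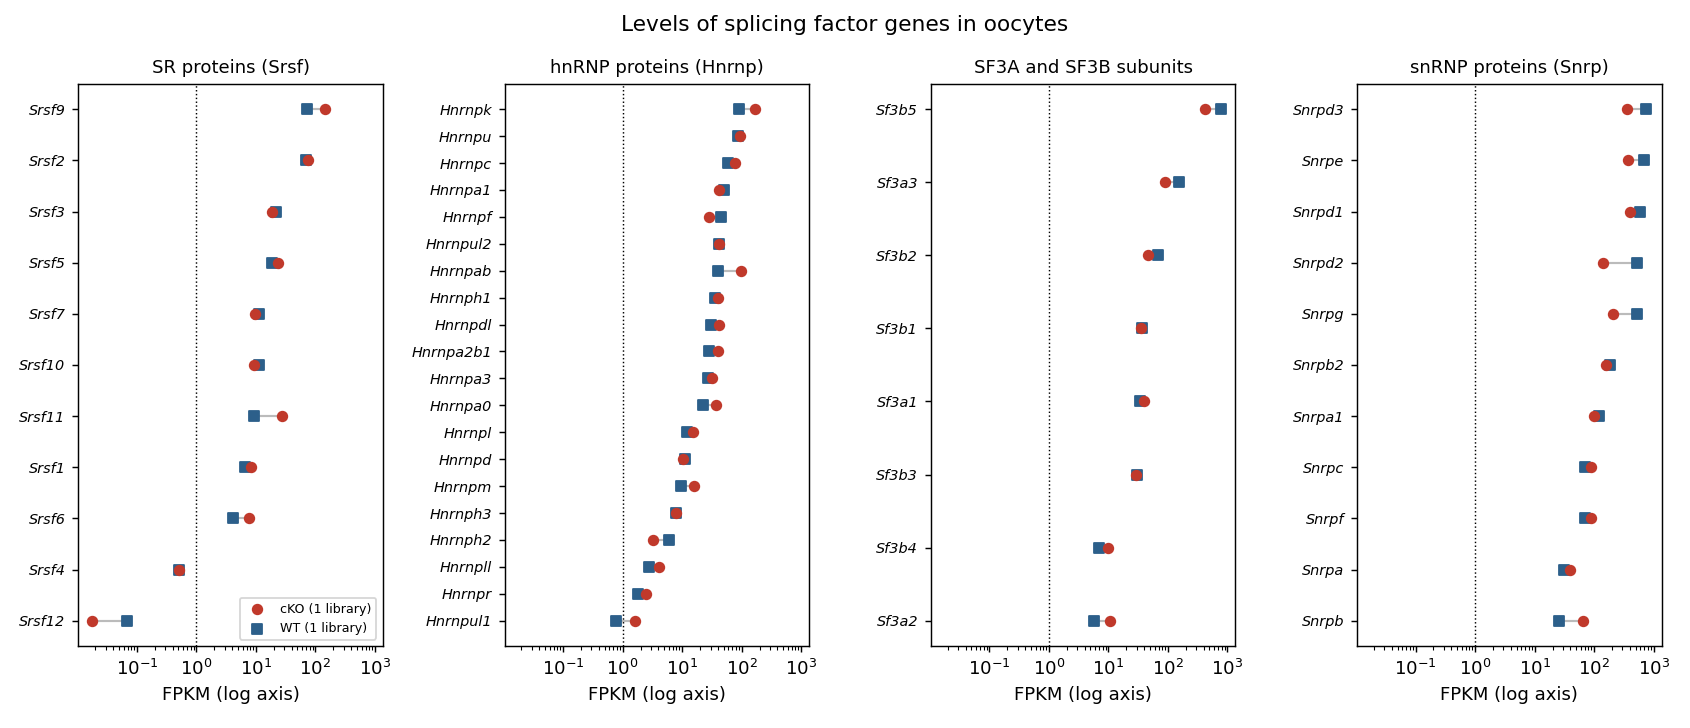
FPKM of the 50 splicing factor genes on a log axis in the cKO library (circles) and the WT library (squares), 1 library each, ordered within each family by the WT level. The dotted line marks 1 FPKM; *Srsf4* and *Srsf12* lie below it in both libraries, and the 5 most abundant snRNP genes of the WT library stand lower in the cKO.

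The snRNP protein genes held 4 of the 6 called members. Of the 11 genes 3 were called lower in the cKO, 1 was called higher and 7 were neither. Over all genes the rule called 12.2% lower and 18.2% higher. The median log2 ratio of the 11 genes was -0.26. That median was -0.01 with TPM, beside 0.30 over all genes. It turned to 0.09 with a lowess trend on transcript length and GC content removed, beside -0.02 over all genes. The summed level of the family was 2032 FPKM in the cKO and 3566 FPKM in the WT library.

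The Sm ring consists of 7 proteins, B, D1, D2, D3, E, F and G, which close around the RNA of each snRNP. In the WT library 5 of their genes stood at similar high levels and the other 2 far below. *Snrpd2* stood at 140 FPKM in the cKO and 534 FPKM in the WT library, 3.81-fold lower (log2 ratio -1.93), and was the member with the lowest ratio of all 4 families. *Snrpg* stood at 211 FPKM in the cKO and 519.5 FPKM in the WT library, a log2 ratio of -1.30. *Snrpd3* stood at 361 FPKM in the cKO and 737 FPKM in the WT library, a log2 ratio of -1.03, just past the rule.

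*Snrpe* (374 FPKM in the cKO, 685 FPKM in the WT library) and *Snrpd1* (403 FPKM in the cKO, 586 FPKM in the WT library) had log2 ratios of -0.87 and -0.54 and were not called. *Snrpf* stood at 90.3 FPKM in the cKO and 70.9 FPKM in the WT library, a log2 ratio of 0.35. *Snrpb*, which encodes SmB and its splice form SmB′, stood at 64.5 FPKM in the cKO and 26.0 FPKM in the WT library, 2.48-fold higher (log2 ratio 1.31). It lies at 130171635 to 130179364 on chromosome 2 of the deposited table (mm10). The ring's genes thus differed in both directions, for the 5 at over 500 FPKM in the WT library were lower in the cKO and the 2 least abundant were higher. Over all 7 genes the levels lay closer together in the cKO, which rests on *Snrpb* and *Snrpf*: the most abundant stood 6.25-fold above the least abundant in the cKO and 28.4-fold above it in the WT library. The standard deviation of their log2 levels was 1.06 in the cKO and 1.92 in the WT library; over all genes at 1 FPKM or more it was 2.29 in the cKO and 2.48 in the WT library. Among the other 5 genes the levels lay farther apart in the cKO, where the highest stood 2.87-fold above the lowest, against 1.42-fold in the WT library. In the cKO the order of the ring's genes began with *Snrpd1*, *Snrpe* and *Snrpd3*, whereas in the WT library *Snrpd3* was first.

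**Figure D2:**
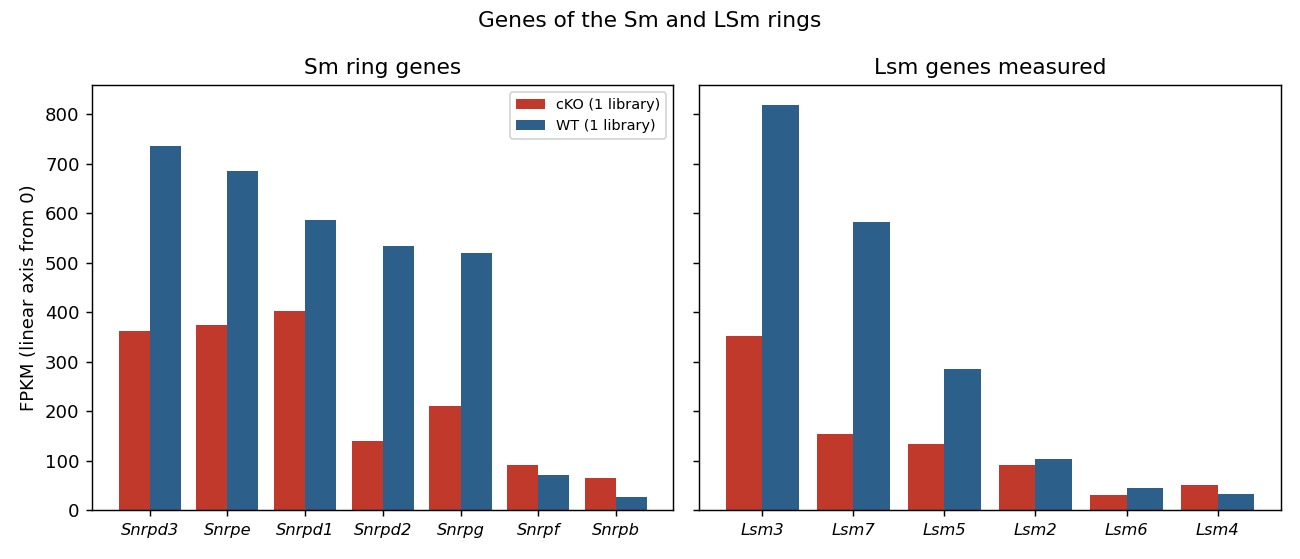
FPKM on a linear axis of the 7 Sm ring genes (left) and of the 6 Lsm genes measured (right), cKO bar left of the WT bar for each gene, 1 library each and ordered by the WT level. The abundant genes of both panels have lower cKO bars, while *Snrpf*, *Snrpb* and *Lsm4* have higher ones.

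The proteins specific to the U1 and U2 particles differed little. *Snrpc*, a U1 protein, stood at 89.1 FPKM in the cKO and 71.0 FPKM in the WT library, and *Snrpa*, another U1 protein, at 39.4 FPKM in the cKO and 31.1 FPKM in the WT library. Their log2 ratios were 0.33 and 0.34. The U2 protein genes *Snrpb2* (160 FPKM in the cKO, 186 FPKM in the WT library) and *Snrpa1* (101 FPKM in the cKO, 120 FPKM in the WT library) had log2 ratios of -0.22 and -0.26. The sum of these 4 genes was 389 FPKM in the cKO and 408 FPKM in the WT library, against 1643 FPKM in the cKO and 3158 FPKM in the WT library for the 7 ring genes.

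The promoters of 5 of the 6 called members are shown, those of 3 Sm ring genes that stood lower and of 1 SR and 1 hnRNP gene that stood higher. The remaining called member, *Snrpb*, is a gene of the same ring that stood higher (log2 ratio 1.31). No promoter was available for it. Each sequence is the 120 bases before the transcription start, 5′ to 3′ on the strand of the gene, from RefSeq (GRCm38.p6). Capitals mark matches, on either strand, to the ETS motif CCGGAA, the GC box GGGCGG or the CCAAT box CCAAT. Only these exact letters were marked. GGAA, the core that ETS motifs share, is unmarked in other settings, such as ACGGAAG in the *Snrpd2* window. The YY1 motif AAGATGGC and the TATA box TATAAA were searched as well and had no match in these 5 windows. The windows are *Snrpd2* at chr7:19149718-19149837 (plus strand), *Snrpd3* at chr10:75517922-75518041 (plus), *Snrpg* at chr6:86371420-86371539 (plus), *Srsf11* at chr3:158036607-158036726 (minus) and *Hnrnpab* at chr11:51606882-51607001 (minus).
Snrpd2: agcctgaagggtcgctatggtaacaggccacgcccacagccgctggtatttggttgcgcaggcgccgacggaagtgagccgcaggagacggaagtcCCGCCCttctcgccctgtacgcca
Snrpd3: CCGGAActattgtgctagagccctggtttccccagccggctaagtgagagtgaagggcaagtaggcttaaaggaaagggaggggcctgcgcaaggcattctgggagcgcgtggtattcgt
Snrpg: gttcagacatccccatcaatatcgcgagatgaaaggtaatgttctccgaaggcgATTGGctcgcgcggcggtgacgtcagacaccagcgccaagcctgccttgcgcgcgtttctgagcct
Srsf11: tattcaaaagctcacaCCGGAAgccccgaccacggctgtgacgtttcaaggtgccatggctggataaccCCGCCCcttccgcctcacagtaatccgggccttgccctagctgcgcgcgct
Hnrnpab: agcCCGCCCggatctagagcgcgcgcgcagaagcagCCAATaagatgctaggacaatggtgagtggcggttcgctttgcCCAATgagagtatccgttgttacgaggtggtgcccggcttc

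Within 250 bases before the start, a promoter was available for 42 of the 48 members at 1 FPKM or more. The ETS motif CCGGAA occurred in 20 of these 42 (47.6%) and in 22.5% of the 9484 promoters of all genes at that level. It was found at *Snrpd3*, *Snrpg* and *Snrpe*, which had lower ratios, and also at *Srsf11* and *Hnrnpab*, which had higher ones. The CCAAT box occurred in 20 members (47.6%) against 37.6% of all promoters, 12 of the 20 being among the 18 hnRNP promoters. The GC box occurred in 29 members (69.0%) against 57.9%, the TATA box in 5 (11.9%) against 6.99%, and the YY1 motif in 1 (2.38%) against 2.10%. The snRNP promoters held a median of 14 CpG dinucleotides in the 250 bases, against 25 at the SR, 23 at the hnRNP and 16 at all promoters. A match describes the letters of the window and not the binding of a factor.

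The SF3A and SF3B complexes stabilise the U2 snRNP at the branch point. Of their 8 genes 0 were called in either direction, although *Sf3a2* was called higher with TPM (log2 ratio 1.10) and without the 50 most abundant genes (1.05). The median log2 ratio was -0.07, beside 0.06 over all genes. It was 0.17 with TPM and 0.13 with library sums taken without the 50 most abundant genes. Under these 2 scalings the median over all genes was 0.30 and 0.26. *Sf3b5*, a small subunit of SF3B, was by far the most abundant, at 428 FPKM in the cKO and 795 FPKM in the WT library, and took 62.2% of the family's summed FPKM in the cKO and 70.1% in the WT library. Its log2 ratio was -0.89. *Sf3a3*, a subunit of SF3A, stood at 88.3 FPKM in the cKO and 156 FPKM in the WT library, a log2 ratio of -0.82. *Sf3b2* stood at 47.0 FPKM in the cKO and 67.4 FPKM in the WT library, a log2 ratio of -0.52.

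*Sf3b1*, the scaffold subunit that contacts the branch point region, stood at 35.2 FPKM in the cKO and 37.1 FPKM in the WT library, and *Sf3b3* at 29.4 FPKM in the cKO and 30.8 FPKM in the WT library. *Sf3a1* stood at 39.2 FPKM in the cKO and 34.6 FPKM in the WT library. These 3 genes of large subunits had log2 ratios between -0.08 and 0.18. The 2 least abundant members had the highest ratios: *Sf3a2* stood at 10.6 FPKM in the cKO and 5.78 FPKM in the WT library (log2 ratio 0.86), and *Sf3b4* at 9.91 FPKM in the cKO and 6.86 FPKM in the WT library (0.52). With the length and GC trend removed these log2 ratios were 0.08 for *Sf3a2* and 0.27 for *Sf3b4*. The range of levels over the 8 genes was narrower in the cKO, the highest standing 43.2-fold above the lowest in the cKO and 137-fold in the WT library. A further SF3B subunit, described in the table as subunit 6 but listed under a clone name and so not a member, stood at 47.5 FPKM in the cKO and 46.2 FPKM in the WT library.

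SR proteins carry domains rich in arginine and serine, and they promote the use of nearby splice sites. Of the 11 genes 9 reached 1 FPKM, of which 1 was called higher, 0 lower and 8 neither. The median log2 ratio was 0.31, or 0.56 with TPM and 0.39 with the length and GC trend removed. For all genes these medians were 0.06, 0.30 and -0.02. *Srsf11*, an SR-related protein, stood at 27.9 FPKM in the cKO and 9.30 FPKM in the WT library, 3.001-fold higher (log2 ratio 1.58), the highest ratio of all members. *Srsf9* was the most abundant SR gene in both libraries, at 145 FPKM in the cKO and 73.6 FPKM in the WT library, and at a log2 ratio of 0.98 it stayed just short of the rule. *Srsf6* stood at 7.60 FPKM in the cKO and 4.17 FPKM in the WT library, a log2 ratio of 0.85.

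The other SR genes differed less. *Srsf2*, the second most abundant, stood at 74.2 FPKM in the cKO and 68.4 FPKM in the WT library. *Srsf1*, the founding member of the family and the closest relative of *Srsf9*, stood far below it, at 8.41 FPKM in the cKO and 6.54 FPKM in the WT library. *Srsf5* stood at 23.2 FPKM in the cKO and 18.7 FPKM in the WT library. *Srsf3* (18.7 FPKM in the cKO, 21.7 FPKM in the WT library), *Srsf7* (9.69 FPKM in the cKO, 11.5 FPKM in the WT library) and *Srsf10* (9.22 FPKM in the cKO, 11.1 FPKM in the WT library) were the 3 SR genes at 1 FPKM or more with ratios below 0, between -0.26 and -0.22. With TPM their ratios lay between -0.02 and 0.03. *Srsf4* stood at 0.515 FPKM in the cKO and 0.511 FPKM in the WT library, and *Srsf12* at 0.0177 FPKM in the cKO and 0.0682 FPKM in the WT library, both too low for the rule. *Srsf9* made up 44.8% of the summed FPKM of the family in the cKO and 32.6% in the WT library, and the family's sum was 325 FPKM in the cKO and 225 FPKM in the WT library.

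**Figure D3:**
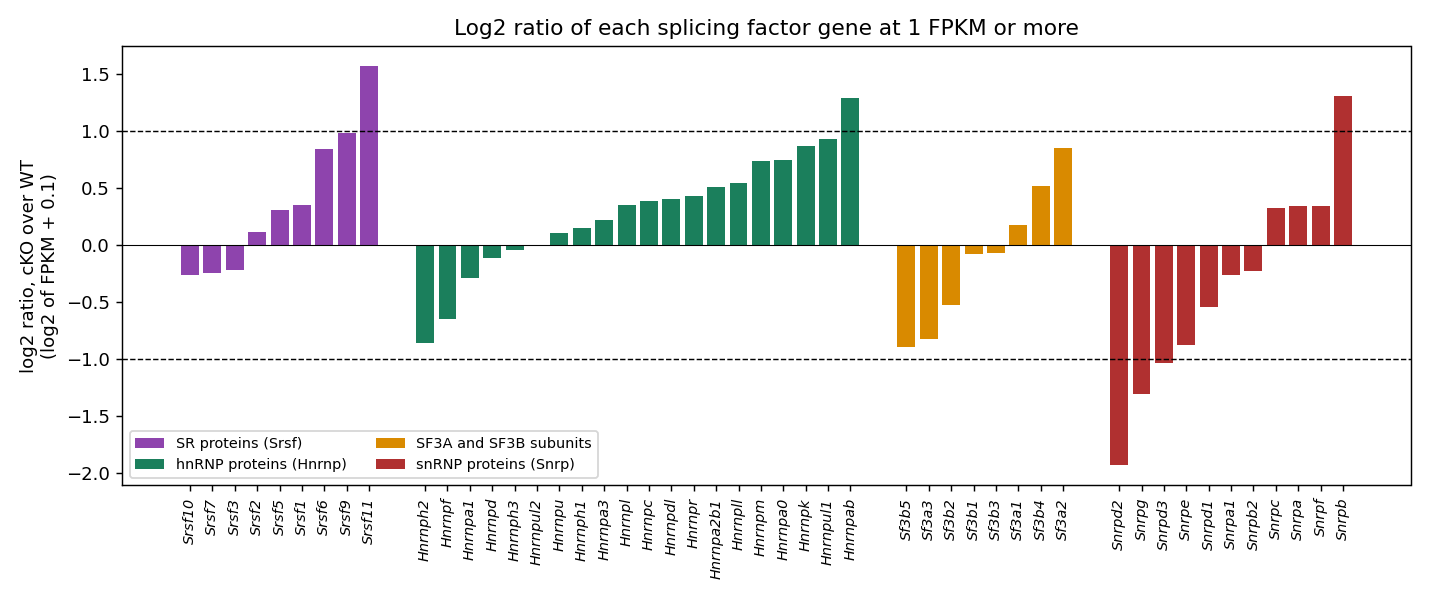
Log2 ratio of cKO over WT, on the log2(FPKM + 0.1) scale, for the 48 members at 1 FPKM or more, ordered within each family; dashed lines mark the 2-fold rule. *Snrpd2*, *Snrpg* and *Snrpd3* lie below the lower line, and *Srsf11*, *Snrpb* and *Hnrnpab* above the upper one.

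The hnRNP proteins package nascent transcripts and include many repressors of splice sites. All 20 genes reached 1 FPKM. Of these 1 was called higher, 0 lower and 19 neither, and 15 had a ratio above 0 against 5 below. The median log2 ratio was 0.37, and it was 0.61 with TPM and 0.34 with the length and GC trend removed. For all genes these medians were 0.06, 0.30 and -0.02. With only genes at 5 FPKM or more the median of the hnRNP genes was 0.23. *Hnrnpab*, which encodes the A/B protein also known as CBF-A, stood at 97.0 FPKM in the cKO and 39.6 FPKM in the WT library, 2.45-fold higher (log2 ratio 1.29). *Hnrnpk*, a KH-domain protein that binds C-rich sequence, was the most abundant of the family in both libraries, at 167 FPKM in the cKO and 90.8 FPKM in the WT library, a log2 ratio of 0.88. *Hnrnpul1* stood at 1.59 FPKM in the cKO and 0.788 FPKM in the WT library, a log2 ratio of 0.93 that passes the rule with a pseudocount of 0.01 FPKM.

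Genes of the A/B group, whose proteins share a pair of RNA recognition motifs, were not alike. *Hnrnpa0* stood at 37.6 FPKM in the cKO and 22.4 FPKM in the WT library (log2 ratio 0.75) and *Hnrnpa2b1* at 40.7 FPKM in the cKO and 28.4 FPKM in the WT library (0.52). *Hnrnpa3* stood at 31.8 FPKM in the cKO and 27.2 FPKM in the WT library (0.23). *Hnrnpa1*, a well-studied splicing repressor, had a ratio below 0, at 41.2 FPKM in the cKO and 50.3 FPKM in the WT library (-0.29). Among these genes *Hnrnpa1* was the most abundant in both libraries. *Hnrnpab* stood above it in the cKO and below it in the WT library.

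The F/H group, whose proteins bind G-rich sequence, held the 2 lowest ratios of the hnRNP genes. *Hnrnph2*, an X-linked gene, stood at 3.30 FPKM in the cKO and 6.05 FPKM in the WT library (-0.86), and *Hnrnpf* at 28.6 FPKM in the cKO and 44.9 FPKM in the WT library (-0.65). *Hnrnph1* stood at 40.0 FPKM in the cKO and 36.1 FPKM in the WT library (0.15) and *Hnrnph3* at 7.78 FPKM in the cKO and 7.98 FPKM in the WT library (-0.04).

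Of the remaining abundant members, *Hnrnpu*, a scaffold protein of the nuclear matrix, stood at 94.8 FPKM in the cKO and 87.7 FPKM in the WT library, and *Hnrnpc*, which binds uridine tracts, at 76.2 FPKM in the cKO and 58.3 FPKM in the WT library. *Hnrnpul2* was level, at 42.2 FPKM in the cKO and 42.1 FPKM in the WT library. *Hnrnpm* stood at 16.04 FPKM in the cKO and 9.54 FPKM in the WT library (0.74). *Hnrnpd*, which encodes the AU-rich element binding protein AUF1, stood at 10.2 FPKM in the cKO and 10.98 FPKM in the WT library (-0.11), and its relative *Hnrnpdl* at 41.3 FPKM in the cKO and 31.1 FPKM in the WT library (0.41). *Hnrnpl*, which binds CA repeats, stood at 15.5 FPKM in the cKO and 12.1 FPKM in the WT library (0.35), and *Hnrnpll* at 4.15 FPKM in the cKO and 2.80 FPKM in the WT library (0.55). *Hnrnpr* was near the floor, at 2.48 FPKM in the cKO and 1.82 FPKM in the WT library (0.43). In each of the pairs *Hnrnpd* with *Hnrnpdl*, *Hnrnpl* with *Hnrnpll* and *Hnrnpul1* with *Hnrnpul2*, the gene that was more abundant in the WT library was also the more abundant in the cKO.

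Log2 ratios ran with transcript length and with level across all genes, and these values stand beside the members' differences. Among the 902 genes with a transcript under 1000 bases the median log2 ratio was -0.58 and 32.4% were called lower; from 1000 to 2000 bases the median was -0.15 and 17.5% were called lower; at 4000 bases or more it was 0.23, with 5.10% called lower. The transcripts of *Snrpe* (503 bases), *Snrpd1* (858 bases), *Snrpf* (861 bases), *Snrpg* (1055 bases), *Snrpb* (1161 bases) and *Snrpd2* (1420 bases) were short, whereas the annotated transcript of *Snrpd3* was 3036 bases and the median over all genes at 1 FPKM or more was 2837 bases. The transcripts used for length need not be those behind the deposited FPKM. For *Sf3b5* the one used had 3841 bases, longer than its deposited locus, 13008449 to 13009183 on chromosome 10. Once the length and GC trend was removed by these lengths, *Snrpd2* (-1.76) and *Snrpd3* (-1.10) remained past the rule and *Snrpg* (-0.73) did not. *Snrpe* was at -0.02 and *Snrpd1* at 0.20. *Srsf11* (1.57), *Snrpb* (1.33) and *Hnrnpab* (1.26) stayed past the rule, and *Snrpf* (1.14) and *Srsf9* (1.09) passed it. The 275 genes with a mean of 400 FPKM or more over both libraries had a median log2 ratio of -0.44, and the 4 members among them one of -0.88. How far length or level accounts for the members' differences was not tested.

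**Figure D4:**
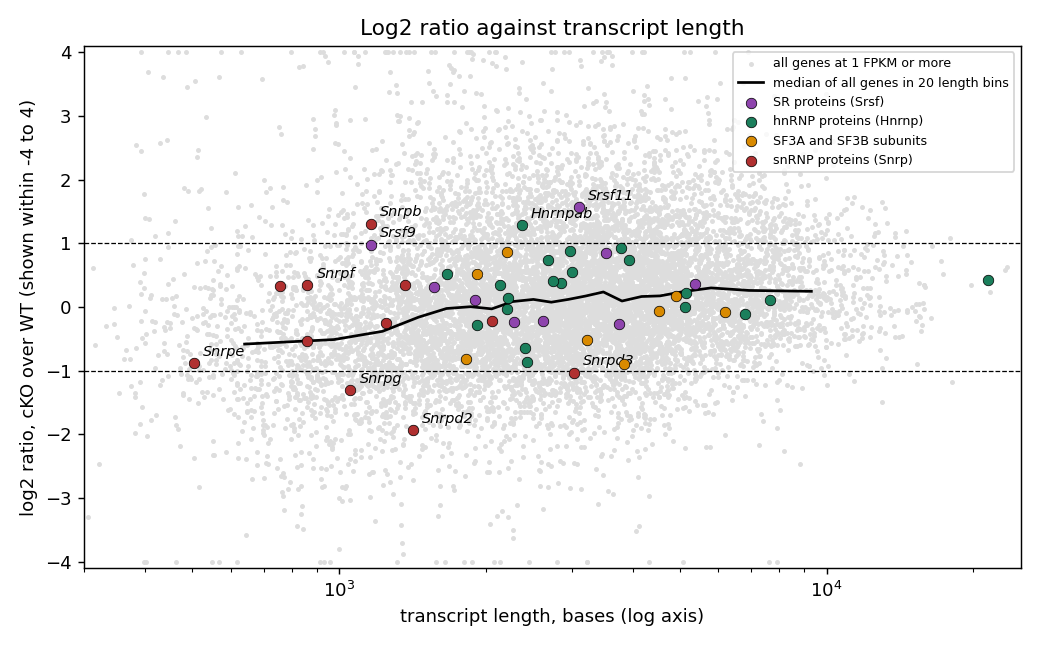
Log2 ratio of cKO over WT against transcript length on a log axis, for genes at 1 FPKM or more (grey; ratios beyond -4 or 4 are drawn at the edge) and the 48 members (coloured by family). The black line is the median of all genes in 20 length bins and climbs with length, so *Snrpe* lies close to it, *Snrpd2* and *Snrpd3* lie below it, and *Snrpb*, *Srsf9* and *Srsf11* lie above it.

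The authors' deposited table gives a false discovery rate (FDR) for each gene from a comparison of the 2 libraries, which bears on these libraries and not on the genotypes. At an FDR of at most 0.05 it lists 5 members with a fold above 1 (*Hnrnpab*, *Hnrnpk*, *Snrpb*, *Srsf11* and *Srsf9*) and 7 with a fold below 1 (*Snrpd1*, *Snrpd2*, *Snrpd3*, *Snrpe*, *Snrpg*, *Sf3a3* and *Sf3b5*). Over all 11816 genes at 1 FPKM or more, 7.74% had such an FDR with a fold above 1 and 4.65% with a fold below 1, against 10.4% and 14.6% of the members. The members had the higher median level, and these shares were not matched for level. The authors' deposited lists of 500 higher and 358 lower genes hold 3 members each, the same 6 genes that the 2-fold rule called. The test behind the FDR is not named in the sources used here. In the authors' deposited table the p-value does not centre on a fold of 1: the 594 genes at 5 FPKM or more whose p-value was 1 had a median fold of 0.833, and the FPKM sum of the cKO library was 0.844 of that of the WT library. The ratio *Srsf3* showed, 0.861, is among those given a p-value of 1.

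Part of the sequence of several members occurs in transcripts of other genes, which makes the assignment of fragments uncertain there. Of all stretches of 50 bases in the transcript, 49.3% were also found in transcripts of another gene for *Sf3b4*, 49.0% for *Hnrnpf*, 46.4% for *Hnrnpa1*, 34.5% for *Hnrnpk*, 31.5% for *Srsf3* and 30.1% for *Hnrnph2*. For the called genes the share was 18.1% at *Snrpg*, 11.7% at *Snrpd2*, 0.172% at *Hnrnpab*, 0.0899% at *Snrpb*, and 0 at *Srsf11* and *Snrpd3*.

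Other genes of splicing were grouped into 8 lists, with 172 genes in the table outside the 4 families. Of the 162 at 1 FPKM or more 21 were called higher and 13 lower, beside 18.2% and 12.2% of all genes, and their median log2 ratio was 0.17. With TPM the counts were 39 higher and 6 lower, or 24.1% and 3.70%, against 24.0% and 8.14% of all genes, with a median of 0.42.

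The tri-snRNP and LSm list held 6 of the 13 lower genes, of 22 members measured, with 2 higher and a median of -0.20. The rule called 12.2% of all genes lower and 18.2% higher. The list's lower genes numbered 2 with TPM (median 0.05), beside 8.14% of all genes (median 0.30). They numbered 3 without the 50 most abundant genes in the library sums, beside 8.84% of all genes. With the length and GC trend removed they numbered 3 as well, beside 11.4% of all genes. The tri-snRNP brings U4, U5 and U6 into the spliceosome, and the LSm ring, related to the Sm ring, binds U6 RNA. *Lsm7* stood at 154 FPKM in the cKO and 583 FPKM in the WT library (log2 ratio -1.92), *Lsm3* at 352 FPKM in the cKO and 819 FPKM in the WT library (-1.22, and -0.48 with the trend removed), and *Prpf38a* at 29.0 FPKM in the cKO and 83.3 FPKM in the WT library (-1.52). *Lsm4*, at 50.9 FPKM in the cKO and 31.8 FPKM in the WT library (0.68), was the 1 gene of the 6 Lsm genes measured with a ratio above 0. With TPM *Lsm2* was above 0 as well. *Prpf4* stood at 5.86 FPKM in the cKO and 2.61 FPKM in the WT library (1.14). The 6 Lsm genes summed to 813 FPKM in the cKO and 1865 FPKM in the WT library, and their median of -0.80 was -0.26 with the length and GC trend removed.

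The exon junction complex, which is deposited on mRNA by splicing, had 2 of 6 genes lower and 1 higher, beside 12.2% and 18.2% of all genes. With TPM 1 was lower and 1 higher, beside 8.14% and 24.0% of all genes. With the length and GC trend removed 1 was lower and 1 higher, beside 11.4% and 15.1% of all genes. *Magoh* stood at 324 FPKM in the cKO and 715 FPKM in the WT library (-1.14, or -0.32 with the length and GC trend removed), its copy *Magohb* at 9.99 FPKM in the cKO and 39.2 FPKM in the WT library (-1.96), and *Casc3* at 9.79 FPKM in the cKO and 3.45 FPKM in the WT library (1.48). In the list of the minor spliceosome, U1 and U5 proteins 3 of 18 were higher and 1 lower, beside 18.2% and 12.2% of all genes. *Zmat5*, of the minor spliceosome's U11/U12 particle, stood at 26.2 FPKM in the cKO and 177 FPKM in the WT library (-2.75), and *Snrnp35*, of the same particle, at 6.13 FPKM in the cKO and 1.73 FPKM in the WT library (1.77). *Prpf39* (10.7 FPKM in the cKO, 3.53 FPKM in the WT library) and *Zrsr2* (37.1 FPKM in the cKO, 13.3 FPKM in the WT library) had log2 ratios of 1.57 and 1.47.

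The list of hnRNP proteins with other symbols and related splicing regulators, the largest list, had the most higher genes, 9 of 36. It had 0 lower and a median of 0.45. Over all genes the rule called 18.2% higher and 12.2% lower. The list's higher genes numbered 6 with a pseudocount of 1 FPKM, beside 12.7% of all genes, and 6 with a floor of 5 FPKM, beside 15.5%. With TPM they numbered 14, beside 24.0% of all genes. *Syncrip*, which encodes hnRNP Q, stood at 14.9 FPKM in the cKO and 2.62 FPKM in the WT library, 5.68-fold higher (log2 ratio 2.46). *Rbm10* stood at 6.57 FPKM in the cKO and 1.69 FPKM in the WT library (1.90) and *Rbm5* at 23.2 FPKM in the cKO and 7.19 FPKM in the WT library (1.68). Among the SR-related proteins and SR protein kinases 1 of 23 was higher, *Rbm25*, at 197 FPKM in the cKO and 92.3 FPKM in the WT library (1.09), and 0 were lower.

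In the SMN complex, which loads Sm rings onto small nuclear RNA, and the factors of snRNP assembly, 3 of 16 genes were higher and 2 lower, with a median of 0.46. Of all genes 18.2% were called higher and 12.2% lower. With TPM 7 of the list were higher and 0 lower (median 0.69), beside 24.0% and 8.14% of all genes (median 0.30). Without the 50 most abundant genes 6 were higher and 1 lower, beside 22.8% and 8.84% of all genes. With a pseudocount of 1 FPKM 1 was higher and 1 lower (median 0.30), beside 12.7% and 8.68% of all genes. *Coil*, which encodes the Cajal body protein coilin, stood at 20.3 FPKM in the cKO and 6.90 FPKM in the WT library (1.54) and *Gemin4* at 2.37 FPKM in the cKO and 0.920 FPKM in the WT library (1.28). *Tgs1*, which modifies the cap of small nuclear RNA, stood at 5.01 FPKM in the cKO and 2.05 FPKM in the WT library (1.25), and *Gemin6* at 27.9 FPKM in the cKO and 64.3 FPKM in the WT library (-1.20). In the PRP19 complex and catalytic step factors 2 of 26 were higher and 2 lower, beside 18.2% and 12.2% of all genes, with a median of 0.00. *Isy1* stood at 7.12 FPKM in the cKO and 22.9 FPKM in the WT library (-1.67), *Bud31* at 149.6 FPKM in the cKO and 372 FPKM in the WT library (-1.31), *Ppil1* at 15.3 FPKM in the cKO and 6.95 FPKM in the WT library (1.13) and *Cdc5l* at 7.74 FPKM in the cKO and 3.49 FPKM in the WT library (1.13). In the list of branch point and 3′ splice site recognition, 0 of 15 genes were called in either direction, with a median of 0.23.

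**Figure D5:**
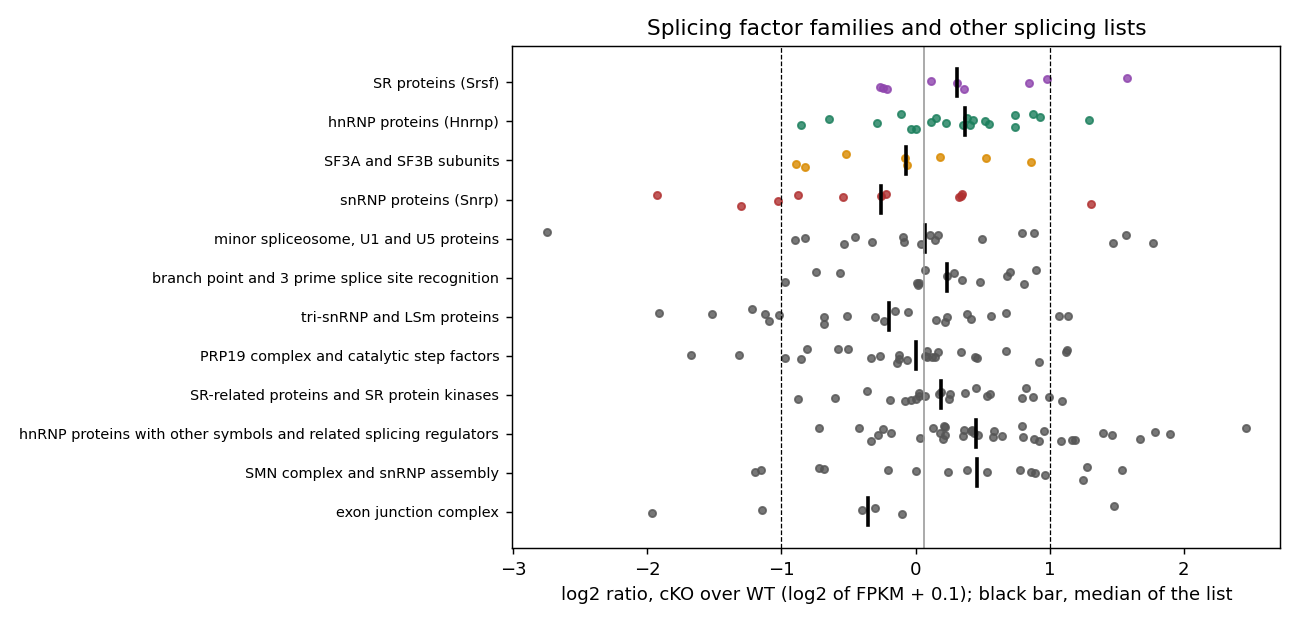
Log2 ratio of cKO over WT for the genes at 1 FPKM or more of the 4 families (coloured) and of the 8 other splicing lists (grey), with the median of each as a black bar, the 2-fold rule as dashed lines and the median of all genes as a grey line. The medians run from -0.35 for the exon junction complex to 0.46 for the SMN complex and snRNP assembly.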

How the data were processed

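Total RNA of 1 cKO and 1 WT oocyte library was sequenced after preparation with a TruSeq RNA kit, per the labels' protocols. Reads were aligned with Bowtie 0.12.2 to mm10, per the submitters' processing notes; counter, annotation, test and fragment totals are not given in the sources used here, so the depth of the libraries is unknown. The authors deposited FPKM values per gene and library, with the linear fold or ratio of the KO over the NC column, a p-value and an FDR, per the file headers. The column named NC was taken as WT by elimination. Values deposited as 1e-05 were read as 0, and 1 line of the table held no values.

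Log2 ratios used a pseudocount of 0.1 FPKM, a floor of 1 FPKM and a 2-fold rule. With 1 library per group no test was made. The trend on length and GC content (lowess, statsmodels 0.14.6, span 0.3) used 1 GENCODE M21 transcript per gene ID, the longest with a RefSeq accession. Its removal was tried on simulated data with a trend on length alone and little noise. That run does not show how well a GC trend is removed or how the removal works on these libraries. Members, the 8 other lists and the naming rule (all members, and of each other list up to 4 called genes with the largest absolute log2 ratio) were chosen with earlier results of these data known; the *Lsm* and SF3B subunit 6 values beyond it were chosen after their values were seen. A gene that the naming rule would give is not reported here. Alternatives were 2 other pseudocounts, 2 other floors, 3 scalings, the trend, a 3-fold rule and the authors' FDR.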

Additional observations from a re-analysis of the deposited data

How the results depend on the processing

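No paired analysis was possible because each genotype has 1 library, and for the same reason no library could be left out. The counts of 3 members higher and 3 lower were kept with a pseudocount of 1 FPKM, floors of 5 FPKM or none, and median-of-ratios scaling, and 4 were higher with a pseudocount of 0.01 FPKM. Over these settings 12.7% to 18.9% of all genes were higher and 8.68% to 12.7% lower. Library sums without the 50 most abundant genes gave 8 higher and 2 lower, beside 22.8% and 8.84% of all genes, and TPM likewise 8 and 2, beside 24.0% and 8.14%. Removal of the length and GC trend gave 5 and 2, beside 15.1% and 11.4% of all genes. A 3-fold rule left 0 higher and 1 lower (*Snrpd2*), beside 8.62% and 4.49% of all genes. *Srsf11*, 3.001-fold higher as FPKM, misses that rule on the log2(FPKM + 0.1) scale. The authors' FDR gave 5 and 7, beside 7.74% and 4.65% of all genes. *Snrpd2* was called lower under every alternative run. *Snrpd3* lost its call with TPM and without the 50 most abundant genes, and *Snrpg* lost its call with the trend removed; no called member changed sign.

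The median log2 ratio of all members was 0.36 without the 50 most abundant genes and 0.41 with TPM. For the SR genes it was 0.51 and 0.56 under these settings, and 0.12 with no floor. For the hnRNP genes it was 0.57 and 0.61, and 0.23 with a floor of 5 FPKM. For SF3A and SF3B it was 0.13 and 0.17, and -0.18 with the trend removed. For the snRNP genes it was -0.058 and -0.011, and 0.093 with the trend removed. The other splicing genes numbered 13 higher with a pseudocount of 1 FPKM (8.02%, against 12.7% of all genes). With the 3-fold rule they numbered 5 higher and 4 lower (3.09% and 2.47%, against 8.62% and 4.49% of all genes). Without the 50 most abundant genes they numbered 35 and 8 (21.6% and 4.94%, against 22.8% and 8.84%), with a median of 0.37. With TPM they numbered 39 and 6 (24.1% and 3.70%, against 24.0% and 8.14%), with a median of 0.42. Under these 2 scalings the median over all genes was 0.26 and 0.30; the cause of other shifts was not tested.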
